A study of Rattus norvegicus with 24 samples.

Results

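At 1 hour after the start of therapy, the peripheral blood mononuclear cells (PBMC) of arthritic Wistar rats that had received saline placebo (PLA) were compared with those of healthy animals (NOCIA in the study, NORA in the labels). The comparison takes 4 of the 24 samples of the series, chosen by their titles, with 2 arrays a group, and asks how blood cells of arthritic and healthy rats differ when the arthritic animals have had no active drug or stimulation. All the animals were female. The PLA animals carried collagen-induced arthritis (CIA), a model of rheumatoid arthritis raised by immunisation with collagen, and had received sterile saline in place of methotrexate, whereas the NOCIA animals were not induced and received no therapy. The study names ether as the anaesthetic of blood sampling for PLA and not for NOCIA, so arthritis, immunisation, injection and, possibly, anaesthesia cannot be told apart here. The age of the animals and whether blood was pooled are not given in the labels. The p-values measure the spread between blood samples that the labels name only as replicates, estimated over all 12 groups of the series.

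MicroRNAs (miRNAs) are short RNAs cut from a hairpin precursor, which load into Argonaute proteins and pair, chiefly through their seed (bases 2 to 8), with messenger RNAs that are then translated less or degraded. Either arm of the hairpin can be loaded, and in the older names used on the array an asterisk marks the arm that is usually the rarer. PBMC hold lymphocytes and monocytes, and their miRNAs differ by cell type: miR-150 and miR-342 are abundant in lymphocytes, miR-223 in myeloid cells, miR-142 in all leukocytes, and miR-451 and miR-144 in red cells, which carry over into mononuclear preparations. In inflammation miR-146a, miR-155 and miR-21 are known to be induced, and miR-146a acts as a brake on Toll-like receptor and NF-kB signalling.

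The mature sequences of some of the miRNAs described below, and of 2 families whose members are compared, are given first, from RefSeq in the build GRCr8 and with the seed in capitals. The array names some of them without an arm, and the arm given here was assigned from miRBase naming. Among those described array by array below, 6 are shown here

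miR-370-3p: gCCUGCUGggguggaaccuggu
miR-20a-3p (miR-20a* on the array): aCUGCAUUacgagcacuuaca
miR-10a-5p: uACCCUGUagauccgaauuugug
miR-484: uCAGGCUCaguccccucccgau
miR-3588: uCACAAGUuagggucucaggga
miR-652-5p (miR-652* on the array): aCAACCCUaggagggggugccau

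miR-370-3p lies at chr6:134354538-134354559 on the plus strand, inside the long non-coding RNA gene LOC102555254. miR-20a-3p lies at chr15:98588354-98588374, plus strand, in the miR-17-92 cluster, and miR-10a-5p at chr10:81779730-81779752, plus strand. miR-484 lies at chr10:1394915-1394936 on the minus strand. miR-652-5p lies at chrX:111140088-111140110, plus strand, inside the gene Tmem164. The annotation table gives gene spans only, so exon and intron are not distinguished. miR-3588 lies at chr11:29732588-29732609 on the minus strand, which is the very position of miR-125b-5p on the plus strand, and the 2 are reverse complements over all 22 bases.

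miR-125b-5p: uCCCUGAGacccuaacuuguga

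Families with a shared seed are shown because their members could be compared with each other. The 5 members of the miR-15/16 family on the array have the seed AGCAGCA and differ after it, and miR-146a and miR-146b share the seed GAGAACU.

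miR-15b-5p: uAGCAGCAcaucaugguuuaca
miR-16-5p: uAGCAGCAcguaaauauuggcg
miR-195-5p: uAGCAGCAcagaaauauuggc
miR-497-5p: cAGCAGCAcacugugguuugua
miR-322-5p: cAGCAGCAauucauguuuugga
miR-146a-5p: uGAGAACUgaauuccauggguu
miR-146b-5p: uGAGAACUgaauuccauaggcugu

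All 4 arrays lay on 1 slide, together with the arrays of methotrexate (MTX) and mechanical stimulation (MS, called AP in the labels) at 1 hour, and had no saturated spots. Levels are given as log2 of the total signal of a miRNA after scaling between arrays, with a floor at 2.53, and a difference of 1 on this scale is a 2-fold difference. Of the 677 miRNAs on the array, the 210 detected on at least 3 of the 24 arrays were tested. The PLA arrays were brighter, with a summed signal of detected miRNAs of 207196 and 224351 against 158247 and 182716 on the NOCIA arrays, and had more miRNAs detected, 197 and 203 against 178 on each NOCIA array. All 4 carried the leukocyte miRNA miR-142-3p between 13.44 and 13.66 and miR-223 between 12.52 and 13.11. None of the muscle (4), epithelial (5) and neural (2) miRNAs on the marker lists was detected on any of the 4 arrays. The other lists of non-leukocyte miRNAs had members detected. Mesenchymal miR-143 was between 7.94 and 8.63 on all 4 arrays, and miR-145 was undetected. Platelet and endothelial miR-126 was between 5.98 and 6.84, and miR-126*, miR-199a-3p and miR-199a-5p were undetected. Liver miR-192 and miR-194 were detected on all 4 arrays and miR-122 on 3. The red cell miRNA miR-451 was among the brightest on every array, at 14.44 and 13.73 in PLA and 13.69 and 15.16 in NOCIA, and its level in NOCIA replicate 2 was the highest.

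No miRNA passed the test. The smallest adjusted p of limma's moderated test was 0.99 over the 210 miRNAs (0.0% called), and 4 miRNAs (1.9%) had an unadjusted p under 0.05, each with the higher level in PLA. By the criterion of the study, which takes miRNAs detected throughout a comparison when they change more than 2-fold at an unadjusted p under 0.05, none passed either. The criterion was applied to the values scaled here and not to the authors' processed table. In that table miR-652* differed by -1.20, miR-484 by -1.12 and miR-3588 by -1.04. The study's own lists of differential miRNAs set after against before therapy, which is another comparison. Among the 164 miRNAs detected on all 4 arrays, 82 had a positive and 82 a negative difference, the median difference was -0.0033 and the median size of the difference 0.177. The differences ran from -1.20 to 1.11, and 3 miRNAs differed by more than 1.

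What the arrays could exclude depended on the level. The 95% interval of the difference lay within 1 on either side of 0, that is within a 2-fold change, for 94 of the 164 miRNAs (57.3%) and within 0.5 for 25 (15.2%). Among the 55 brightest it lay within 1 for 44, among the 54 of middle level for 37, and among the 55 dimmest for 13. The median size of the difference was 0.279 in the dimmest, 0.15 in the middle and 0.126 in the brightest, and the median reach of the interval to either side was 1.03, 0.632 and 0.482 in the same order. For most dim miRNAs the interval therefore did not exclude a 2-fold difference with 2 arrays a group. These intervals are not adjusted for the number of miRNAs tested, and their spread was estimated over all 12 groups, treated groups included. They do not show that a 2-fold difference of a brighter miRNA would have been called.

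**Figure D1:**
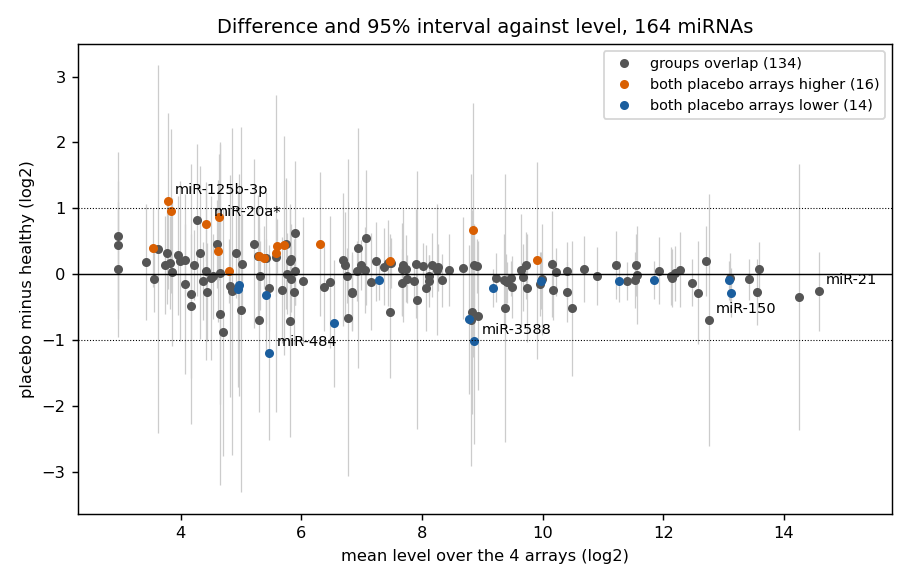
Difference of PLA (placebo) from NOCIA (healthy) at 1 hour on the log2 scale, against the mean level over the 4 arrays, for the 164 miRNAs detected on all 4; points are differences of group means, grey bars 95% intervals, and colours mark miRNAs whose groups do not overlap. The points lie around 0 at every level and the dotted lines at 1 and -1 are passed by 3 miRNAs, miR-125b-3p, miR-484 and miR-3588.

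The groups did not overlap for 34 of the 210 miRNAs (16.2%), of which 18 had both PLA arrays above both NOCIA arrays (8.57%) and 16 had both below (7.62%). The 16 miRNAs that were higher and the 14 that were lower among those detected on all 4 arrays spanned the range of levels, with 15 among the dimmest, 6 in the middle and 9 among the brightest.

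miR-370 gave the lowest p. This miRNA of the imprinted Dlk1-Dio3 region was at 3.61 and 4.58 in PLA and was detected on neither NOCIA array (limma unadjusted p = 0.00598, adjusted p = 0.99). The PLA mean was 2.94-fold above the lowest signal detected for any miRNA on those arrays, which is no lower bound for miR-370. Before scaling, its 2 probes read 2.23 and 3.35 on NOCIA replicate 1, and 4.88 and 4.76 on replicate 2. The same probes read 8.27 and 11.96 on PLA replicate 1, and 11.42 and 15.52 on replicate 2. On the same slide miR-370 was also detected in MTX, at 3.80 and 3.95, and on neither MS array, and it was detected on no array before therapy and on none of PLA or NOCIA at 34 days. Its level was close to the floor throughout: with a floor 2 times as high the difference was 0.57, and in the authors' table it was 0.20.

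miR-20a*, the rarer arm of a miR-17-92 precursor, was at 5.00 and 4.61 in PLA and 3.93 and 4.14 in NOCIA, a difference of 0.77 ± 0.27 (SE) with limma's unadjusted p of 0.0122. The groups were separate, and the 3.93 of NOCIA replicate 1 was the lowest value of miR-20a* on the 24 arrays, whose median was 4.49. The main arm, miR-20a, was at 11.79 and 12.12 in PLA against 11.84 and 11.97 in NOCIA, a difference of 0.05 ± 0.23 (SE). The miR-20a* difference was 0.84 with quantile normalisation, 0.009 after normexp background correction and 0.11 in the authors' table. Normexp was run with an offset of 50, which draws differences of dim miRNAs towards 0. miR-423* was at 5.88 and 5.73 in PLA and at 5.38 and 5.40 in NOCIA, a difference of 0.42 ± 0.19 (SE, limma unadjusted p = 0.0456), and the groups were again separate. miR-425*, the fourth miRNA with an unadjusted p under 0.05, was detected on 1 array of the 4, PLA replicate 2, at 3.73. These 2 are named because the count was small, after their values were seen.

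**Figure D2:**
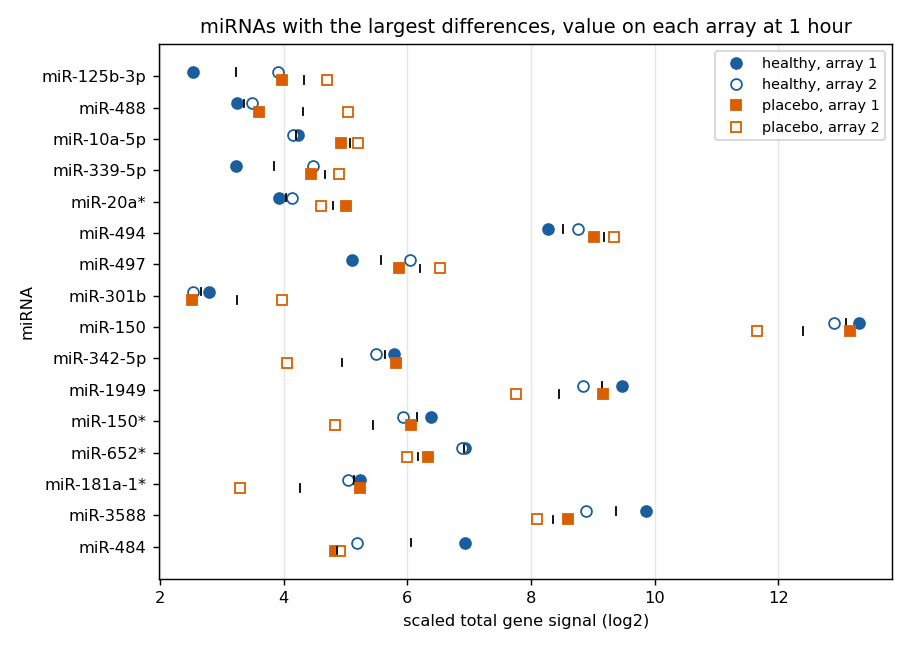
Level of the 8 miRNAs with the largest positive and the 8 with the largest negative difference among those detected on all 4 arrays, on each PLA (placebo) and NOCIA (healthy) array at 1 hour, in log2 of scaled signal; black ticks are group means. For miR-150, miR-342-5p, miR-181a-1*, miR-150* and miR-1949 the placebo array 1 lies near the healthy arrays and placebo array 2 below them.

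The largest positive differences after these were of dim miRNAs. miR-125b-3p was at 3.97 and 4.71 in PLA and 2.54 and 3.91 in NOCIA, a difference of 1.11 ± 0.62 (SE), and the groups were apart by less than the gap within NOCIA (0.43 without NOCIA replicate 1). miR-488 was at 3.60 and 5.04 in PLA and 3.24 and 3.49 in NOCIA (0.95 ± 0.58, SE), where PLA replicate 2 alone stood well above the rest (0.23 without it). miR-10a-5p, encoded within a Hox gene cluster, was at 4.93 and 5.20 in PLA and 4.23 and 4.16 in NOCIA (0.87 ± 0.45, SE). Replicates of miR-10a-5p were close in both groups, but of the MTX arrays on the same slide 1 lay between the PLA values, at 5.13, and the other below both NOCIA arrays, at 3.85. The MS arrays of that slide, at 5.17 and 4.38, lay above both NOCIA arrays. These 3 sizes depended on the processing. After normexp background correction the differences were 0.068 for miR-125b-3p, 0.14 for miR-488 and 0.12 for miR-10a-5p. The authors' table gave 0.12, 0.13 and 0.012 in the same order, whereas quantile normalisation gave 0.78, 0.86 and 1.09. For miR-339-5p, miR-497 and miR-301b the groups overlapped, and their differences of 0.82, 0.63 and 0.58 were 0.098, 0.16 and 0.0016 after normexp. The brightest of the 8 was miR-494, at 9.02 and 9.34 in PLA against 8.27 and 8.76 in NOCIA, where the groups did not overlap. Its difference was 0.67 with an interval from -1.27 to 2.60, and it kept 0.56 after normexp and 0.97 in the authors' table. The spread behind that interval includes other groups, such as MS at 1 hour at 6.72 and 9.19.

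On the negative side miR-484 stood farthest. It was at 4.83 and 4.91 in PLA and 6.94 and 5.20 in NOCIA, a difference of -1.20 ± 0.61 (SE, limma unadjusted p = 0.0692). The difference came from NOCIA replicate 1: the other 3 arrays, the MTX arrays at 4.78 and 4.37 and the MS arrays at 5.03 and 4.42 all lay within 4.37 and 5.20. It was -0.33 without that array, -0.40 after normexp and -1.12 in the authors' table. miR-3588 was at 8.61 and 8.10 in PLA and 9.86 and 8.89 in NOCIA (-1.02 ± 0.73, SE). The miR-3588 difference was -0.54 without NOCIA replicate 1, -0.73 after normexp and -1.04 in the authors' table. miR-125b-5p, whose sequence is its reverse complement, was at 7.72 and 6.97 in PLA and 6.34 and 7.24 in NOCIA, a difference of 0.56 ± 0.48 (SE), and the miR-125b-5p groups overlapped. The fitted differences of the 2 strands had opposite signs, and neither passed the test.

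miR-652* had close replicates, at 6.33 and 6.001 in PLA and 6.93 and 6.89 in NOCIA (-0.75 ± 0.45, SE), with -0.26 after normexp and -1.20 in the authors' table. The other arm, miR-652, differed by -0.15. The MTX arrays, at 6.21 and 6.35, and the MS arrays, at 5.42 and 6.44, were also below both NOCIA arrays, but these are the same NOCIA arrays, and no arm gives independent support to another. For the remaining 5, miR-181a-1*, miR-150*, miR-1949, miR-342-5p and miR-150, the groups overlapped.

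Detection itself differed between the groups. Of 221 miRNAs detected on any of the 4 arrays, 47 were detected on more PLA than NOCIA arrays and 7 on more NOCIA than PLA arrays. Besides miR-370, miR-874, miR-30b-3p and miR-674-3p were detected on both PLA arrays and on neither NOCIA array, and no miRNA showed the reverse. miR-874 reached 2.77 on 1 PLA array and was otherwise at the floor, and miR-30b-3p and miR-674-3p were at the floor on both PLA arrays after scaling, so the difference in detection was one between values at the limit of measurement. The PLA arrays were also the brighter ones, and the part of brightness in these detection calls was not tested.

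Of the inflammation list (miR-146a, miR-146b, miR-155, miR-21, miR-132, miR-223, miR-125b-5p and miR-181a), 7 were on the array, miR-132 was not tested, and none of the 6 tested was called. miR-155 was not on the array under that name, so it was not measured here. The median difference was -0.0073, beside 0.0095 over all miRNAs tested. miR-21, the brightest, was at 14.62 and 14.27 in PLA and 14.98 and 14.44 in NOCIA, with a difference of -0.26 and an interval from -0.86 to 0.33. miR-146a, the NF-kB feedback miRNA, was at 8.90 and 8.31 in PLA and 9.69 and 8.79 in NOCIA, a difference of -0.63 ± 0.53 (SE), while miR-146b with the same seed was at 7.54 and 7.59 against 7.36 and 7.38, a difference of 0.19 ± 0.19 (SE). The miR-146b groups did not overlap and the miR-146a groups did. The myeloid miRNA miR-223 was at 12.52 and 13.11 in PLA and 12.54 and 12.69 in NOCIA, so PLA replicate 2 was the only array apart.

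The 7 members of the lymphocyte list had a median difference of -0.28, beside 0.0095 over all miRNAs tested, with 5 negative and 2 positive differences. None was called and none had groups that did not overlap, beside 16.2% of all miRNAs tested. miR-150, which restrains c-Myb in developing lymphocytes, was at 13.16 and 11.65 in PLA and 13.30 and 12.89 in NOCIA. miR-342-3p, encoded within the gene Evl, was at 10.72 and 9.72 in PLA and 10.91 and 10.56 in NOCIA, and miR-181a, which tunes T cell receptor signalling, was at 10.06 and 9.22 against 9.85 and 9.85. In each of the 3, PLA replicate 2 was the lowest of the 4 arrays and PLA replicate 1 lay above the lower NOCIA array. Without PLA replicate 2 the difference was 0.059 for miR-150 and -0.018 for miR-342-3p. In a mixed sample fewer cells of a type and less RNA per cell cannot be told apart.

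The large families differed little. In the miR-17-92 and miR-106b-25 clusters, which promote proliferation and survival of lymphocytes, 9 of 9 members were tested, the differences ran from -0.27 to 0.13 and the median was -0.033. miR-19b was at 12.08 and 12.16 in PLA and 12.10 and 12.25 in NOCIA, an interval from -0.50 to 0.38, and miR-92a at 11.92 and 12.31 against 12.24 and 12.05. The 8 members of the let-7 family, which share a seed and favour differentiation, had differences from -0.13 to 0.13. let-7a was at 13.02 and 13.08 in PLA and 13.13 and 13.16 in NOCIA, a difference of -0.10 with an interval from -0.39 to 0.20. For let-7a and let-7b both PLA arrays were below both NOCIA arrays, by amounts that the test did not separate from 0.

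In the miR-15/16 family, which targets BCL2 and cyclins, the brighter members had the negative differences. miR-16, which the same precursor region inside Smc4 encodes beside miR-15b, was at 13.61 and 13.22 in PLA and 13.54 and 13.83 in NOCIA (-0.27), and miR-15b was at 13.13 and 12.84 against 13.18 and 13.35 (-0.28). miR-497 was at 5.87 and 6.54 in PLA and 5.11 and 6.04 in NOCIA (0.63), and miR-195 and miR-322 differed by 0.14 and 0.19. The median over the 5 was 0.14 and none was called. miR-15b* differed by 0.40, at 3.63 and 3.84 in PLA against 3.26 and 3.42, in the opposite direction to miR-15b. Over the 25 pairs of arms with both detected on all 4 arrays, 21 had the same sign in both arms.

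The other lists gave no call. The miR-29 family (3 tested) had a median of -0.09, the miR-23/27/24 clusters (5) of 0.069, and the miR-30 family (5) of -0.05, and the interval of each named member of these included 0. In the miR-34 family, known as targets of p53, all 3 differences were negative. miR-34a was at 7.79 and 7.62 in PLA and 7.88 and 7.69 in NOCIA, miR-34b differed by -0.48 ± 0.51 (SE), and miR-34c was at 3.86 on 1 PLA array, undetected on the other, and at 4.24 and 3.97 in NOCIA. The hypoxia-induced miR-210 was at 7.47 and 8.48 in PLA and 7.59 and 8.04 in NOCIA, a difference of 0.16 ± 0.38 (SE).

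**Figure D3:**
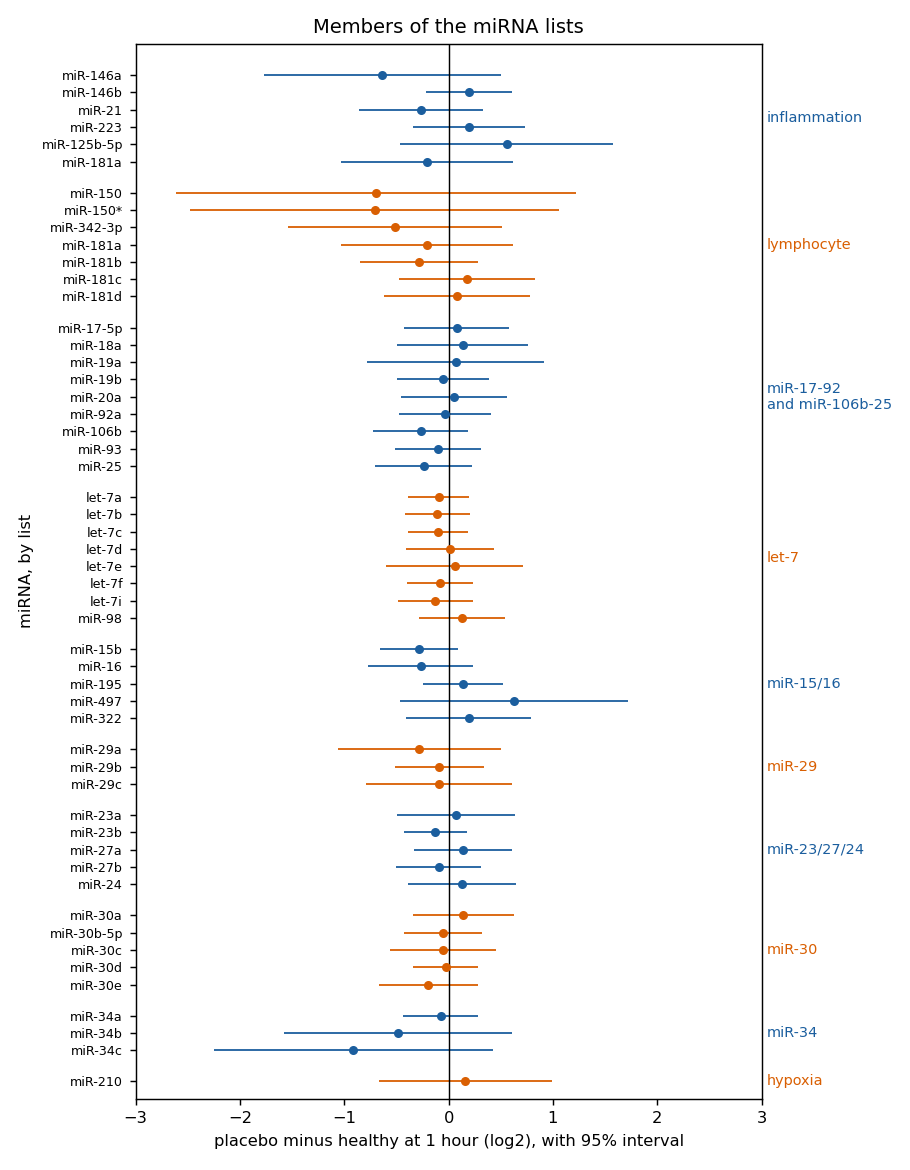
Difference of PLA (placebo) from NOCIA (healthy) at 1 hour on the log2 scale, with its 95% interval from limma, for each tested member of the miRNA lists, grouped by list. Every interval includes 0, and those of the let-7 family are among the narrowest.

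PLA replicate 2 stood apart from the other 3 arrays. Over the 132 miRNAs detected on all 24 arrays the median size of the difference between 2 single arrays was 0.397 between the PLA replicates and 0.214 between the NOCIA replicates. From PLA replicate 1 it was 0.193 and 0.196 to the NOCIA arrays, and from PLA replicate 2 it was 0.409 and 0.286. Between replicates it was 0.0774 to 0.602 over the 12 groups of the series. PLA replicate 1 was most like NOCIA replicate 2 (Pearson r of 0.994 over the 132 miRNAs), more than like its own replicate (0.974), and PLA replicate 2 was least like NOCIA replicate 1 (0.967).

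The gap between the PLA arrays had a pattern by miRNA. From replicate 1 to replicate 2 the level was lower by over 1 for miR-342-5p (5.82 and 4.06), miR-7a (9.35 and 7.75), miR-150 (13.16 and 11.65), miR-1949 (9.16 and 7.76) and miR-99a (7.82 and 6.46), among others. It was higher for miR-32 (4.58 and 6.31), miR-488 (3.60 and 5.04), miR-328a (6.28 and 7.34) and miR-210 (7.47 and 8.48). The lymphocyte miRNAs miR-150, miR-342-3p, miR-342-5p, miR-181a and miR-181b were all lower on replicate 2, miR-181c and miR-181d higher, and miR-223 was 0.58 higher. The NOCIA arrays differed mainly in other miRNAs, with miR-451 at 13.69 and 15.16, miR-144* at 7.36 and 8.88, and miR-484 at 6.94 and 5.20.

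**Figure D4:**
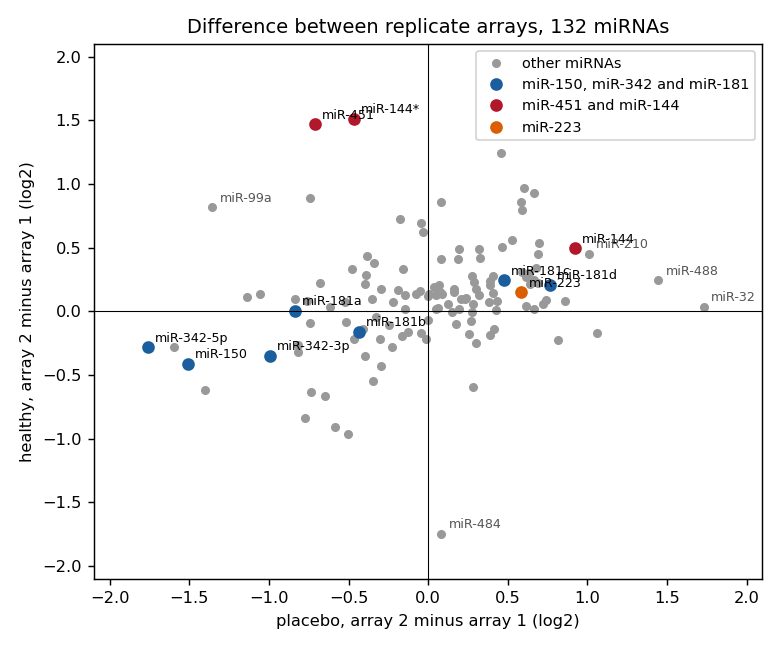
Level on array 2 minus array 1 on the log2 scale, in PLA (placebo, x axis) and NOCIA (healthy, y axis), for the 132 miRNAs detected on all 24 arrays. Most points spread along the x axis, miR-150, miR-342-5p and miR-342-3p lie at the left with placebo array 2 the lower, and miR-451 and miR-144* lie at the top with healthy array 2 the higher.

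Leaving out PLA replicate 1 changed the count of calls from 0 to 2, both higher in PLA, and the lone PLA array was then assumed to vary like the other groups. The 2 were miR-138 (2.23 ± 0.38 on the log2 scale, SE, limma adjusted p = 0.00653) and miR-425* (1.20 ± 0.15, SE, limma adjusted p = 0.000458). Each was detected on PLA replicate 2 and on no other of the 4 arrays, with miR-138 at 4.76 there. Leaving out any other of the 4 arrays gave 0 calls, and these 2 are therefore values of 1 array.

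Arthritic and healthy animals had also been compared before therapy, on another slide and in other animals (RA and NORA before therapy in the labels), with 2 arrays each. In that comparison limma called 2 of 210 miRNAs (0.952%), miR-122 and miR-3593-3p. Both calls were lost after normexp background correction and in the authors' table, and held with any 1 of the 4 arrays left out. The liver miRNA miR-122 was detected on both healthy arrays, at 7.76 and 7.73, and on neither arthritic array. miR-3593-3p was detected on both arthritic arrays, at 5.28 and 4.87, and on neither healthy array, and over the series on 22 of the 24 arrays. Those healthy arrays had the fewest miRNAs detected of the 24 (148 and 145) and the lowest summed signals (137544 and 138064). The part of brightness in these calls was not tested. Neither call repeated at 1 hour: miR-122 was at 3.69 and 4.26 in PLA and at 3.85 on 1 NOCIA array, undetected on the other, and miR-3593-3p was at 5.27 and 5.60 in PLA and 5.11 and 5.20 in NOCIA.

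The test of the difference between the 2 contrasts called miR-122 of 210 miRNAs (0.476%), with 5.92 ± 1.14 (SE) on the log2 scale and limma's adjusted p of 0.0315, and 13 miRNAs (6.19%) had an unadjusted p under 0.05. The healthy arrays before therapy had the highest values of the 8, and as miR-122 was undetected on 3 of the others its fitted size is no measured one. With the replicate number as a block it was not called (smallest adjusted p = 0.0521), and it was called without 2 of the 8 arrays and lost without each of the other 6 (0 to 3 calls of any miRNA). The call was also lost with the 75th percentile over all miRNAs, quantile normalisation, normexp, the authors' table or a higher floor. For miR-3593-3p the difference between contrasts was -1.81 ± 0.40 (SE) with limma's adjusted p of 0.0554. As miR-3593-3p was undetected on both healthy arrays before therapy, that size is no measured one either. With undetected values at the floor it was -2.27 ± 0.40 (SE, limma adjusted p = 0.0133). miR-3584-5p was at 4.68 and 5.04 in PLA, at 4.82 on 1 NOCIA array at 1 hour, and at 5.37 and 7.96 on the healthy arrays before therapy, with both arthritic arrays there undetected, and the adjusted p of its difference was 0.104.

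The direction of the small differences was often opposite at the 2 times. Over the 132 miRNAs detected on all arrays, which share the scaling of the whole series but no array, the 1 hour differences and those before therapy had a Pearson r of -0.37, given as a description. miR-150 differed by -0.70 at 1 hour and by 0.57 before therapy, miR-342-3p by -0.52 and 0.54, and miR-652* by -0.75 and 0.78, whereas miR-10a-5p differed by 0.87 and -0.38. The adjusted p of the difference between contrasts was above 0.05 for each of these 4. Without PLA replicate 2 the 1 hour difference was 0.059 for miR-150 and -0.018 for miR-342-3p. It was -0.58 for miR-652* and 0.74 for miR-10a-5p. How far the r depends on that array was not tested.

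**Figure D5:**
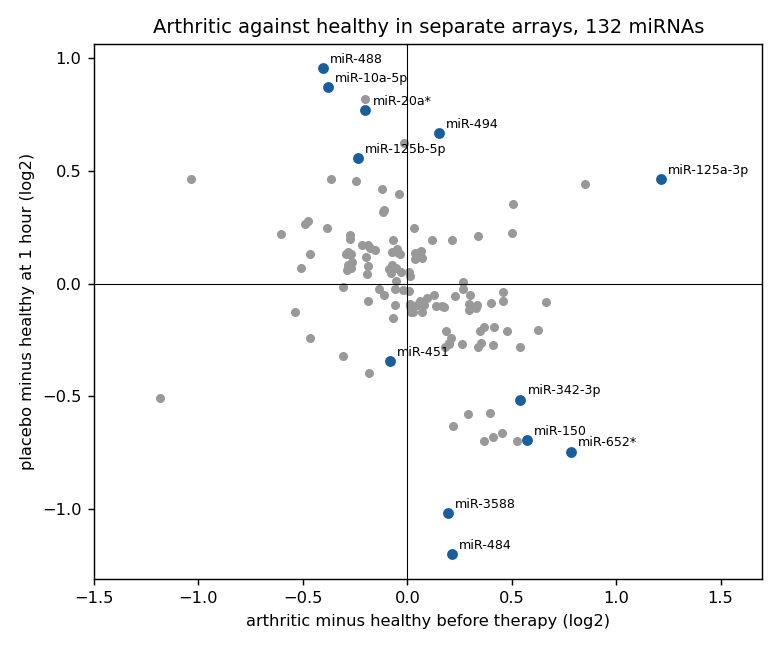
Difference of arthritic from healthy animals before therapy (x axis) and of PLA from NOCIA at 1 hour (y axis), both on the log2 scale, for the 132 miRNAs detected on all 24 arrays; each point is a miRNA and the arrays of the axes are separate. Named points such as miR-150, miR-342-3p and miR-652* lie at the lower right and miR-488 and miR-10a-5p at the upper left, with a Pearson r of -0.37 over all points. Without PLA replicate 2 the 1 hour difference was 0.059 for miR-150 and -0.018 for miR-342-3p.

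At 34 days PLA lay on another slide than NOCIA, so slide and group cannot be told apart there and the values are given side by side only. miR-20a* was at 4.12 and 4.09 in PLA and 4.96 and 4.90 in NOCIA, miR-10a-5p at 4.66 and 3.92 against 5.15 and 5.31, and miR-488 at 3.79 and 3.85 against 4.61 and 4.78. These 3 stood higher in PLA than in NOCIA at 1 hour and lower at 34 days. miR-150 was at 13.31 and 13.23 in PLA and 13.02 and 12.44 in NOCIA at 34 days, and miR-652* at 6.68 and 6.24 against 5.85 and 5.76, again the other way from 1 hour.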

How the data were processed

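RNA of PBMC was hybridised in 1 colour to 24 Agilent arrays of rat miRNAs, 2 in each of 12 groups taken from the titles. The authors deposited scanner values read with Agilent Feature Extraction 10.7.3.1, linear intensity values corrected for background and not normalised between arrays, and a log2 table of processed values whose normalisation and background treatment are not stated (their notes name RMA). Its 24 columns each matched their own array best and had medians of 2.89 to 2.91. All 12046 undetected values equalled their listed error and hold no level. Here the total gene signal was scaled to 1 common 75th percentile over the 132 miRNAs detected on all 24 arrays, given a floor of 5.76 and log2-transformed. limma 3.58.1 (R 4.3.3) was fitted with 12 group means to all arrays (12 residual degrees of freedom), with two-sided tests, adjusted by Benjamini-Hochberg over 210 miRNAs, and called at an adjusted p under 0.05. The ratio given for miR-370 set the PLA mean against the lowest signal detected on each NOCIA array. With 2 arrays a group an exact test cannot reach 0.05, and the number of arrays limits the precision. The fit was tested on simulated data.

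The miRNAs named were all calls, the 8 largest differences in each direction among miRNAs detected on all 4 arrays, those detected in 1 group only, and up to 3 of each list by level. The comparison, the members and the lists were chosen with earlier results of these data known. The alternatives were other scalings, normexp (offset 50) on the median spot signal, the table of the authors, other floors and filters, fewer arrays, a block by replicate number, the criterion of the study and leaving out 1 array at a time. The replicate numbers were not taken as pairs: the correlation of same-numbered deviations ran from -0.77 to 0.84 over 66 pairs of groups and was over 0.1 in 26. All 41 array names looked up had a RefSeq mature sequence.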

Additional observations from a re-analysis of the deposited data

Results flagged for a closer look

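The difference between arthritic and healthy animals before therapy and that at 1 hour differed from each other for miR-122 in the test of the difference itself, by 5.92 ± 1.14 (SE) on the log2 scale (limma adjusted p = 0.0315). The call was lost in 8 of 13 alternatives, among them the replicate block (smallest adjusted p of any miRNA 0.0521), quantile normalisation, normexp and the authors' table, and in 6 of 8 fits with 1 array left out. Among the alternatives counted, the study's criterion and the filter for detection on all arrays compared could not call miR-122, since both need detection throughout. miR-122 was detected on both healthy arrays before therapy, at 7.76 and 7.73, and on 3 of the 4 arrays at 1 hour, at 3.69 and 4.26 in PLA and 3.85 in NOCIA. It was detected on 9 of the 24 arrays, and its highest value, 8.96, was in a group not compared here. No group compared had 4 or more arrays, so single arrays were not tested as outliers.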

How the results depend on the processing

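PLA against NOCIA at 1 hour gave 0 calls in every alternative except without PLA replicate 1 (range over arrays left out 0 to 2). Without scaling the median difference over all miRNAs was 0.45 and with the 75th percentile over all miRNAs -0.26, against 0.0095, so directions below hold relative to the scaling. The replicate block changed no call at 1 hour (0 calls, smallest adjusted p = 0.344) or before therapy (2 calls), and ended the call of the difference between contrasts (0 calls), but the samples share only a number. Before therapy the count of 2 became 4 with the 75th percentile over all miRNAs, 4 with quantile normalisation, 4 with a lower floor, 5 with undetected values at the floor, 7 in a fit of the arrays compared, 8 in a fit of the slide, 1 at the study's threshold, and 0 with normexp, the authors' table or miRNAs detected on all arrays compared. With no filter it was 371, of which 351 were detected on no array. The 1 call of the difference between contrasts became 0 with the 75th percentile over all miRNAs, quantile normalisation, normexp, the authors' table, miRNAs detected on all arrays compared or a higher floor, 2 with undetected values at the floor, and 353 with no filter, of which 334 were detected on no array. It was 0 to 3 with an array left out. Some of the arrays compared had no detection of miR-122 or miR-3593-3p. The study's threshold and the filter for miRNAs detected on all arrays compared could therefore call neither. Apart from this and the unfiltered counts, the cause was not tested.

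Of 840 values of single miRNAs at 1 hour under the alternatives, 716 kept their sign, 82 had the opposite sign and 42 had none, since 1 of the 2 values compared was 0, and the opposite sign was never called. Of the 8 largest positive differences, 7 were under 0.2 both after normexp and in the authors' table. The offset of 50 in normexp draws differences of dim miRNAs towards 0, so normexp could not decide whether those of the dim ones hold. Without scaling the differences turned positive for miR-21 (0.22), miR-181a (0.27), miR-19b (0.43), miR-92a (0.45), let-7f (0.41), let-7a (0.39), let-7i (0.36), miR-16 (0.22), miR-15b (0.20), miR-29a (0.20), miR-29b (0.40), miR-29c (0.39), miR-30c (0.43), miR-30e (0.29), miR-30b-5p (0.43) and miR-34a (0.41). With the 75th percentile over all miRNAs they turned negative for miR-223 (-0.14), miR-20a (-0.28), miR-322 (-0.14), miR-23a (-0.26), miR-27a (-0.19), miR-24 (-0.20) and miR-210 (-0.17). Scaling on the median gave 0.0084 for miR-19b, 0.031 for miR-92a, 0.014 for miR-30c and 0.012 for miR-30b-5p. Quantile normalisation gave 0.42 for miR-21, 0.13 for miR-19b, 0.028 for miR-29c, 0.013 for miR-30c, 0.038 for miR-30e and 0.20 for miR-30b-5p. Normexp gave 0.098 for miR-181a-1*, 0.40 for miR-21, 0.078 for miR-19b, 0.034 for miR-92a, 0.038 for let-7a, 0.066 for let-7i, 0.097 for miR-29c, 0.14 for miR-30c and 0.099 for miR-30b-5p. The authors' table gave 0.16 for miR-21, 0.079 for miR-19b, 0.12 for miR-92a, 0.11 for let-7f, 0.080 for let-7a, 0.0023 for let-7i, 0.010 for miR-29b, 0.014 for miR-29c, 0.082 for miR-30c and 0.083 for miR-30b-5p.

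Leaving out each array in turn gave, for the miRNAs whose sign it changed, -0.53 to 0.011 for miR-21, -0.23 to 0.16 for miR-92a, -0.11 to 0.21 for miR-20a, -0.29 to 0.11 for miR-29b, -0.10 to 0.38 for miR-27a, -0.17 to 0.019 for miR-34a, -0.34 to 0.66 for miR-210, -0.13 to 0.022 for miR-19b, -0.27 to 0.17 for miR-30c, -0.27 to 0.011 for let-7i, -0.14 to 1.31 for miR-301b, -1.85 to 0.10 for miR-181a-1*, -1.399 to 0.0018 for miR-1949, -1.58 to 0.18 for miR-342-5p, -1.45 to 0.059 for miR-150, -0.093 to 0.49 for miR-223, -0.63 to 0.21 for miR-181a, -0.0095 to 0.40 for miR-322, -0.69 to 0.13 for miR-29a, -0.46 to 0.28 for miR-29c, -0.24 to 0.38 for miR-23a, -0.062 to 0.33 for miR-24, -0.50 to 0.11 for miR-30e and -0.23 to 0.12 for miR-30b-5p. Of 180 list medians, 163 moved by less than the spread between replicates and 17 by more, 15 of them under the 2 scalings named first.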
